A study of Mus musculus with 9 samples.

Results

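Genes that take up, carry, store, export and sense iron were followed in RNA of dissected mouse substantia nigra. They were chosen by name, as Tfrc, Trf, Slc11a2, Fth1, Ftl1, Slc40a1, Cp, Hamp, Aco1 and Ireb2, and all 10 symbols matched 1 gene each among the 55450 genes of the deposited tables. Of these 10, 9 passed the filter on low counts together with 20892 genes in all, and Hamp did not. The study asked how the nigra responds when a Cre-inducible lentiviral vector is switched on in microglia or in dopaminergic neurons. Bulk RNA was sequenced in 9 libraries, 3 in each of 3 groups, from tissue taken 5 weeks after bilateral injection of male mice. The CTR group consisted of CX3CR1-CreERT2 mice, whose Cre is driven by a microglia and macrophage gene, given a Cre-inducible control vector (GFP in the labels, destabilized GFP in the study's text). The CX3 group consisted of CX3-Cre mice of the same line given the study's test vector in place of the control vector. The DAT group consisted of DAT-Cre mice, whose Cre is driven by the dopamine transporter gene, given that same test vector. Age at injection is 8 weeks in the study's results, whereas its methods describe purchased mice of 9 weeks. According to the methods, tamoxifen was injected on 4 consecutive days into CX3CR1-CreERT2 mice, so DAT and CTR differed in Cre line, tamoxifen and vector, which cannot be told apart here, and CX3 and DAT differed in Cre line and tamoxifen. How many animals gave each library was not stated, so that p-values measure only the spread between these libraries, which may be technical.

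Cells take up iron mainly as iron-loaded transferrin, bound at the cell surface by the transferrin receptor. Iron that is not used is held inside ferritin, a shell of heavy and light chains, and leaves the cell through ferroportin with the help of copper oxidases. The iron regulatory proteins bind short RNA hairpins called iron-responsive elements when cellular iron is scarce, and this blocks translation of ferritin and ferroportin mRNAs and protects the transferrin receptor mRNA from decay. In the nigra, iron is found in dopaminergic neurons as well as in oligodendrocytes and other glia.

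These hairpins are shown because they tie ferritin, ferroportin and the transferrin receptor to the regulatory proteins encoded by 2 other members, Aco1 and Ireb2. GENCODE M21 protein-coding transcripts (GRCm38) were searched in the sense direction for the loop CAGTGN, closed by 5 paired bases on each side, G-T pairs allowed, after an unpaired C. Capitals mark the 6 loop bases, and the flanking bases are in lower case, 29 in all.
Fth1 5′UTR, chr19:9982732-9982760, plus strand: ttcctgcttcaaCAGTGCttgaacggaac
Ftl1 5′UTR, chr7:45459779-45459807, minus strand: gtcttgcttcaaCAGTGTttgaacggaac
Slc40a1 5′UTR, chr1:45925465-45925493, minus strand: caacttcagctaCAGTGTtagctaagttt
Tfrc 3′UTR, chr16:32631219-32631247, plus strand: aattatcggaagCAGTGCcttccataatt
Tfrc 3′UTR, chr16:32631598-32631626, plus strand: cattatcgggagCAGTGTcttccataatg
Tfrc 3′UTR, chr16:32631663-32631691, plus strand: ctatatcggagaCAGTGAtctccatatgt
Tfrc 3′UTR, chr16:32631710-32631738, plus strand: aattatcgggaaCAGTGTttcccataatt
The pattern was present in 4 of the 10 members, and in 294 of 21901 protein-coding genes (1.34%). Fth1, Ftl1 and Slc40a1 had 1 match each before the coding part, and Tfrc had 4 matches after it. A match is a description of these letters, and the lack of one in the other 6 members says only that this pattern was not in their annotated transcripts.

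Counts on genes ranged from 21592817 in DAT library B to 39475428 in DAT library A. Of the strand-specific counts, 49.8 to 49.9% lay on the reverse strand in every library, although a stranded kit was named, so counts of both strands together were used and overlapping genes on opposite strands could not be told apart. Squared differences in counts averaged 1.49 to 1.89 times those of sampling alone between CTR libraries, 2.72 to 7.33 times between CX3 libraries and 2.38 to 18.7 times between DAT libraries, where library B stood apart from A and C. No gene in the tables reports which vector a library received. Levels are given as CPM, the counts scaled to the library size as normalized by edgeR. As a check of the Cre lines, Cx3cr1 had 101 to 103 CPM in CTR, 43.6 to 45.3 in CX3 and 78.5 to 86.2 in DAT, and Slc6a3, the dopamine transporter gene, had 128 to 133, 193 to 198 and 88.3 to 93.3 CPM. CTR and CX3, described as the same Cre line, thus differed in Cx3cr1 with DAT between them, and this check did not settle whether the labels are right. None of the 8 dopaminergic neuron markers was at 0 in any group, with summed levels of 501 to 505 CPM in CTR, 691 to 701 in CX3 and 471 to 492 in DAT. The group names CTR, CX3 and DAT mean the libraries so labelled throughout, and every direction below rests on those labels.

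**Figure D1:**
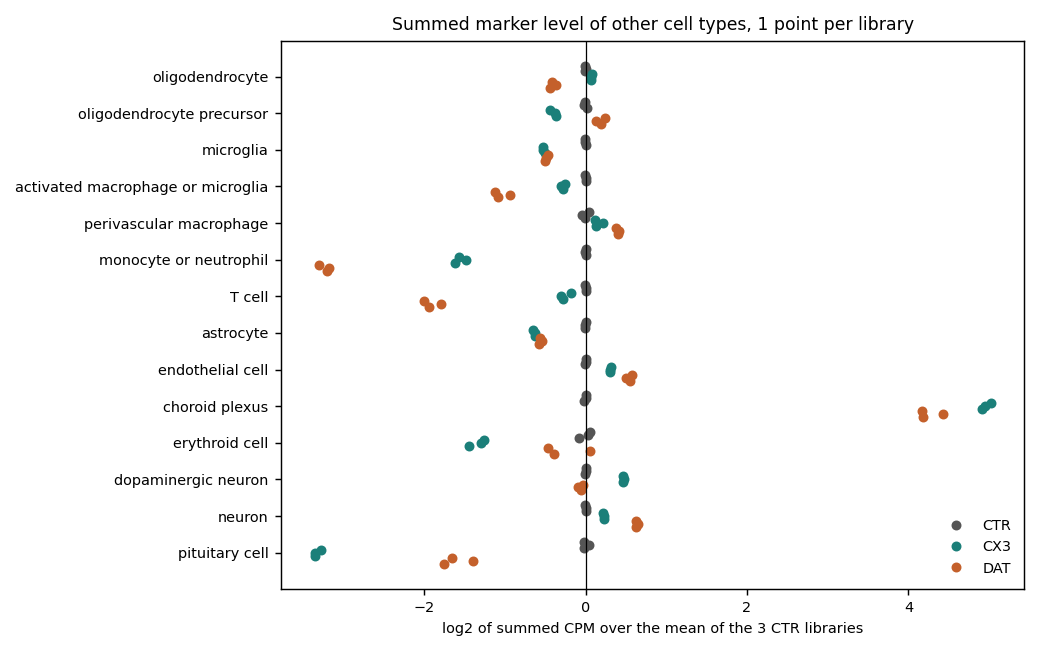
Summed CPM of each list of cell type markers in each library, as log2 of the ratio to the mean of the 3 CTR libraries (horizontal axis), with 1 point per library, coloured by group. Choroid plexus markers summed to 48.9 to 49.9 CPM in CTR, 1495 to 1605 in CX3 and 891 to 1062 in DAT, and monocyte or neutrophil markers to 49.0 to 49.5, 16.1 to 17.6 and 5.02 to 5.43.

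Marker levels of several cell types differed between groups, as the plot of summed marker levels shows. T cell markers summed to 52.2 to 52.8 CPM in CTR, 42.7 to 46.3 in CX3 and 13.2 to 15.2 in DAT, and erythroid markers to 243 to 267, 94.7 to 108 and 187 to 268. Microglia markers summed to 820 to 828 CPM in CTR, 572 to 582 in CX3 and 584 to 597 in DAT. The sums of T cell, monocyte or neutrophil, microglia and activated macrophage markers were thus all highest in the libraries labelled CTR, which no value here could check against the vector received. From its bulk RNA the study reported T cell genes, Cd3e and Cd8a among them, as strongly raised in the CX3 condition. Here 0 of 6 T cell markers were called higher and 3 lower in CX3 than in CTR (Cd3e −0.36, Cd8a −0.05, neither called). Relative to CTR, that is not the reported direction. Against DAT, all 6 were higher in CX3. Pituitary markers summed to 61.3 to 64.0, 6.09 to 6.44 and 18.5 to 23.6 CPM. Ly6g and Prl were at 0 in the DAT libraries and no other marker was at 0 in a group. In bulk tissue, fewer cells of a type and less RNA per cell cannot be told apart.

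Levels of different genes were compared as RPKM, the CPM per kilobase of exon bases not shared with another gene. In CTR, Fth1 was by far the most abundant member at 1026 ± 20.4 RPKM (SD, n = 3), followed by Ftl1 at 95.9 ± 3.58 and Tfrc at 13.9 ± 0.432. Ireb2 (9.16 ± 0.211), Cp (8.71 ± 0.0420), Aco1 (8.20 ± 0.330), Trf (7.39 ± 0.553) and Slc11a2 (6.98 ± 0.204) lay close together, and within them the ranges over libraries of Aco1 and Trf overlapped, as did those of Trf and Slc11a2. The Trf level rests on only 1212 of its 3320 exon bases, so its level and its place in this order are uncertain. Slc40a1 was low at 1.17 ± 0.0680 RPKM and Hamp lowest at 0.139 ± 0.175. The order of the first 3 and the last 2 genes was the same in CX3 and DAT. In CX3 the ranges of Cp and Aco1 overlapped, as did those of Aco1 and Trf, and in DAT those of Aco1 and Ireb2 did. Copies of ferritin genes were counted separately, with 39 to 125 counts per library on Ftl1-ps1 and at most 51 on any of Ftl1-ps2, Ftl2-ps, Fth-ps2 and Fth-ps3, and the levels of both ferritin chains are uncertain to the extent that reads cannot be assigned between copies.

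**Figure D2:**
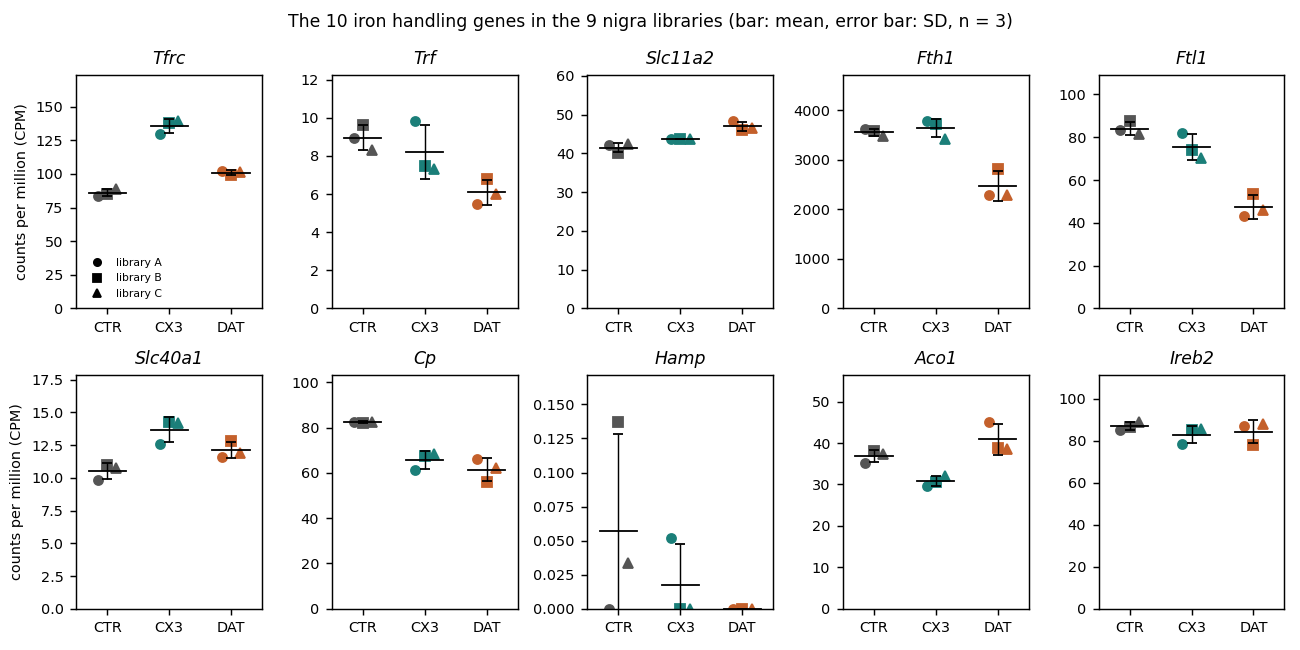
CPM of each of the 10 genes in each library (vertical axes from 0, each on its own scale), by group, with the mean as a bar and the SD as an error bar (n = 3). Tfrc was highest in the 3 CX3 libraries, at 130 to 139 CPM, Fth1 and Ftl1 were lowest in the 3 DAT libraries, and Hamp was at or near 0 in all.

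Relative to CTR, the CX3 libraries had higher Tfrc and Slc40a1 and lower Cp and Aco1, with both ferritin chains near their CTR levels. DAT libraries, relative to CTR, had less mRNA of both ferritin chains, of Trf and of Cp, with smaller increases of Tfrc and Slc11a2. By edgeR's quasi-likelihood test (adjusted p under 0.05 over all genes tested), 2 of 9 members were higher and 2 lower in CX3 than in CTR, where 14.0% of all genes were called higher and 16.5% lower. Between DAT and CTR, 2 members were higher and 4 lower, against 32.0% and 27.9% of all genes. Between CX3 and DAT, 4 members (Fth1, Ftl1, Tfrc and Trf) were higher in CX3 and 1 (Aco1) was lower, against 27.6% and 31.3% of all genes. The members' median log2 differences were −0.07, −0.04 and 0.18 in these comparisons, and those of all genes −0.0033, −0.0038 and 0.0103. CX3 and DAT were compared with the same 3 CTR libraries. Scaling to library size alone left 0 members higher and 5 lower in DAT than in CTR, since it shifted the median of all genes by −0.15.

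**Figure D3:**
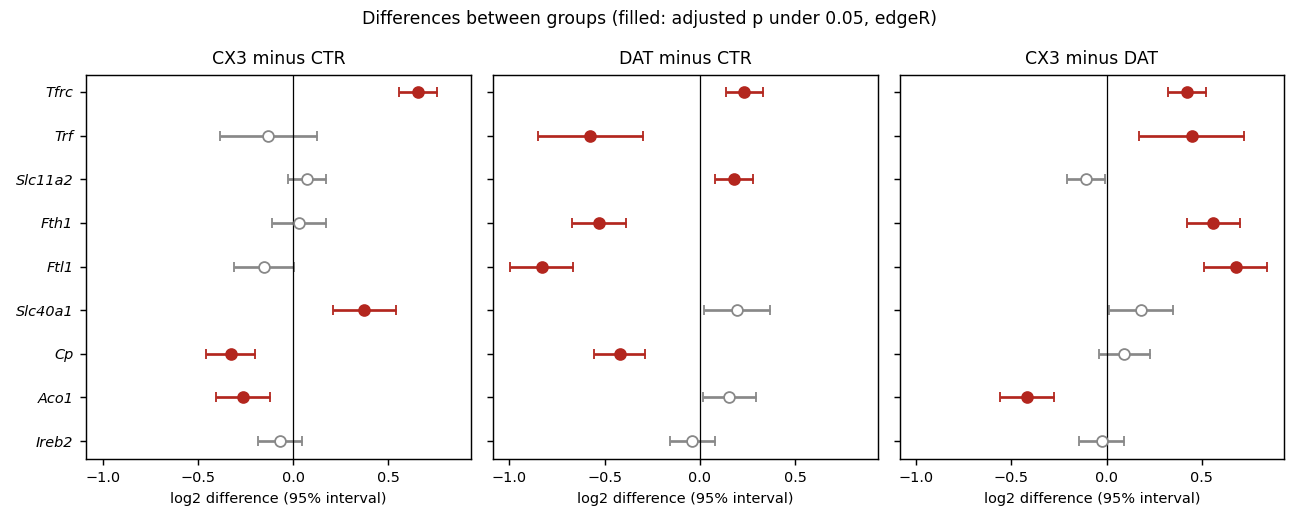
Log2 differences between groups (horizontal axis) of the 9 members tested, with 95% intervals from edgeR, in 3 panels for the 3 comparisons. Filled points have an adjusted p under 0.05. Tfrc lies above 0 in all 3 panels, and the ferritin chains Fth1 and Ftl1 lie below 0 for DAT minus CTR and above 0 for CX3 minus DAT.

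Tfrc encodes the transferrin receptor, through which cells take up transferrin-bound iron (ENSMUSG00000022797.16, GRCm38 chromosome 16 from 32608920 to 32632794, plus strand). Its level was 83.6, 85.3 and 88.9 CPM in the CTR libraries, 130, 138 and 139 CPM in CX3 and 103, 98.9 and 102 CPM in DAT. The groups did not overlap, with CTR lowest, DAT between and CX3 highest. The difference between CX3 and CTR was 0.66 on the log2 scale (SE 0.0455), a 1.58-fold higher level, with an adjusted p of 1.25e-07 (edgeR). CX3 exceeded DAT by 0.42 (SE 0.0456, adjusted p = 2.09e-06, edgeR). DAT exceeded CTR by 0.23 (SE 0.0461, adjusted p = 0.000546, edgeR), and this last call was lost with library size alone, at 0.09 (adjusted p = 0.101), which was 0.24 above the median shift of all genes. Tfrc carries the 4 hairpin patterns printed above in its 3′UTR.

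The sum of choroid plexus markers had the same order over the groups as Tfrc. Of 9 choroid plexus markers, 8 were called higher and 0 lower in CX3 than in CTR and likewise in DAT, 4 higher and 2 lower in CX3 than in DAT, and none was at 0 in any group. Endothelial markers were, in contrast to Tfrc, highest in DAT, with sums of 314 to 316 CPM in CTR, 390 to 394 in CX3 and 446 to 472 in DAT, and of 8 such markers 4 were higher and 2 lower in CX3 than in CTR, 6 higher and 2 lower in DAT than in CTR, and 2 higher and 4 lower in CX3 than in DAT. Their part in the Tfrc difference was not tested.

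Trf encodes transferrin, the iron carrier of plasma, which oligodendrocytes and choroid plexus make in the brain (ENSMUSG00000032554.15, chromosome 9 from 103204001 to 103230444, minus strand). Of its 3320 exon bases, 2108 (63.5%) are shared with the read-through gene Gm20425 on the same strand, which had 0 counts, so reads in that part were left out as ambiguous and the Trf counts rest on the other 1212 bases. Those counts gave 8.93, 9.64 and 8.30 CPM in CTR, 9.81, 7.48 and 7.29 in CX3, and 5.48, 6.79 and 6.01 in DAT. CTR and CX3 overlapped, with CX3 library A above and B and C below every CTR library, and DAT lay below both. DAT differed from CTR by −0.58 (SE 0.128, adjusted p = 0.00145, edgeR), a 0.671-fold level, and CX3 exceeded DAT by 0.45 (SE 0.128, adjusted p = 0.00801, edgeR). The difference between CX3 and CTR was −0.13, with a 95% interval from −0.38 to 0.12.

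Slc11a2 encodes the divalent metal transporter that moves iron out of endosomes into the cytosol (ENSMUSG00000023030.16, chromosome 15 from 100387898 to 100425072, minus strand), and 6.33% of its exon bases are shared with Gm5475 on the opposite strand. It had 42.1, 40.1 and 42.4 CPM in CTR, 43.8, 43.7 and 43.6 in CX3 and 48.3, 46.1 and 46.6 in DAT. The 3 ranges did not overlap but lay within a narrow span. DAT exceeded CTR by 0.18 (SE 0.0466, adjusted p = 0.00402, edgeR). Without CTR library B, the lowest, that difference was 0.13 and was not called (adjusted p = 0.0545, edgeR), and it was not called either with library size alone (0.03, which is 0.19 above the shift of all genes), with genes of at least 10 counts in every library (0.11), or in reverse-strand (0.14) and forward-strand (0.07) counts. CX3 minus CTR was 0.07 (95% interval −0.02 to 0.17) and CX3 minus DAT was −0.11 (adjusted p = 0.0606, edgeR), and the latter was called without DAT library B (−0.11, adjusted p = 0.0453, edgeR) but turned to 0.09 with library size alone (adjusted p = 0.112, edgeR) and to 0.0075 in forward-strand counts (adjusted p = 0.936, edgeR).

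Fth1 encodes the ferritin heavy chain, whose ferroxidase activity loads iron into the shell (ENSMUSG00000024661.7, chromosome 19 from 9980598 to 9985098, plus strand). Its level was 3617, 3576 and 3480 CPM in CTR, 3775, 3716 and 3428 in CX3, and 2292, 2816 and 2295 in DAT. CX3 and CTR overlapped, and every DAT library lay below both, with library B nearest to them. DAT differed from CTR by −0.53 (SE 0.0657, adjusted p = 8.62e-06, edgeR), which is a 0.694-fold level, and CX3 exceeded DAT by 0.56 (SE 0.0657, adjusted p = 4.74e-06, edgeR). Between CX3 and CTR the difference was 0.03, with a 95% interval from −0.11 to 0.17.

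Ftl1 encodes the ferritin light chain, which supports formation of the iron core (ENSMUSG00000050708.16, chromosome 7 from 45457944 to 45459884, minus strand), and 34.6% of its exon bases are shared with Gm22133 or Gm10252. It had 83.4, 87.5 and 81.3 CPM in CTR, 82.2, 74.0 and 70.5 in CX3, and 43.0, 53.6 and 45.9 in DAT. DAT was again below every other library, and only CX3 library A reached the CTR range. The DAT level was 0.562-fold that of CTR (log2 difference −0.83, SE 0.0765, adjusted p = 4.1e-07, edgeR), and this was the only member difference that also passed a test against a fold of 1.5 (adjusted p = 0.00529, edgeR's glmTreat). CX3 exceeded DAT by 0.68 (SE 0.0764, adjusted p = 3.2e-06, edgeR). CX3 minus CTR was −0.15 (adjusted p = 0.133, edgeR), but it was called without CX3 library A, at −0.22 (adjusted p = 0.0495, edgeR), and with the CX3 and CTR libraries alone, at −0.15 (adjusted p = 0.0242, edgeR).

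Setting members against each other within a library removes the scaling between libraries. There were 23.0 to 24.5 Ftl1 counts per 1000 Fth1 counts in CTR, 19.9 to 21.8 in CX3 and 18.8 to 20.0 in DAT. There were 23.1 to 25.5 Tfrc counts per 1000 Fth1 counts in CTR, 34.3 to 40.6 in CX3 and 35.1 to 44.8 in DAT. In both ratios CX3 and DAT overlapped and CTR stood apart from both. Taken singly, Tfrc was highest in CX3 but also higher in DAT than in CTR, and Fth1 was lowest in DAT.

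Oligodendrocyte markers moved with ferritin and transferrin mRNA. Their sum was 21946 to 22043 CPM in CTR, 22948 to 23312 in CX3 and 16145 to 17120 in DAT, with 2 of 12 markers called higher and 6 lower in DAT than in CTR, 4 higher and 6 lower in CX3 than in CTR, and none at 0. Markers of activated macrophages or microglia summed to 444 to 445 CPM in CTR, 362 to 373 in CX3 and 205 to 233 in DAT, with 9 of 10 lower in DAT than in CTR, 1 higher, and none at 0. Choroid plexus markers, of the other cell type named above for Trf, had a higher sum in DAT than in CTR, whereas Trf was lower. That sum was 48.9 to 49.9 CPM in CTR, 1495 to 1605 in CX3 and 891 to 1062 in DAT. Of 9 such markers, 8 were called higher and 0 lower in DAT than in CTR. The part of any of these lists in the differences of Fth1, Ftl1 and Trf was not tested.

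Slc40a1 encodes ferroportin, the exporter of iron from cells (ENSMUSG00000025993.10, chromosome 1 from 45908068 to 45926523, minus strand). It had 9.85, 11.0 and 10.8 CPM in CTR, 12.6, 14.3 and 14.2 in CX3, and 11.6, 12.8 and 11.9 in DAT. CTR lay below every other library, and the CX3 and DAT ranges overlapped. CX3 exceeded CTR by 0.37 (SE 0.0761, adjusted p = 0.00206, edgeR), a 1.30-fold level. DAT exceeded CTR by 0.19 (adjusted p = 0.0508, edgeR), just short of the threshold. CX3 minus DAT was 0.18 (adjusted p = 0.0587, edgeR) and was called without CX3 library A (0.26, adjusted p = 0.0124, edgeR), without DAT library B (0.23, adjusted p = 0.0175, edgeR), with DESeq2's size factors (0.20) or with genes of at least 10 counts in every library (0.25), in all under 7 of 16 alternatives.

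Cp encodes ceruloplasmin, a copper oxidase that oxidizes iron as ferroportin releases it and that astrocytes carry at their surface (ENSMUSG00000003617.16, chromosome 3 from 19957054 to 20009145, plus strand). Its level was 82.5, 81.9 and 82.6 CPM in CTR, 61.0, 67.6 and 68.2 in CX3, and 66.0, 55.9 and 62.2 in DAT. All CTR libraries were above all others, and CX3 and DAT overlapped. CX3 differed from CTR by −0.33 (SE 0.0607, adjusted p = 0.00103, edgeR) and DAT by −0.42 (SE 0.0618, adjusted p = 4.26e-05, edgeR). CX3 minus DAT was 0.09 (adjusted p = 0.218, edgeR) and was called without CX3 library A (0.16, adjusted p = 0.0414, edgeR) or without DAT library A (0.17, adjusted p = 0.0378, edgeR), and with library size alone (0.29), in all under 6 of 16 alternatives. Thus the exporter and its oxidase moved in opposite directions in CX3.

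The summed level of astrocyte markers was lower in both groups in which Cp was lower, while the single markers were less uniform in DAT. The sum was 5650 to 5727 CPM in CTR, 3624 to 3684 in CX3 and 3823 to 3931 in DAT. Of 8 astrocyte markers, 6 were called lower and 0 higher in CX3 than in CTR, 4 lower and 1 higher in DAT than in CTR, with median log2 differences of −0.53 and −0.08, and none was at 0. Gfap alone fell from a mean of 2369 CPM in CTR to 1181 in CX3 and 1065 in DAT. Their part in the Cp difference was not tested, nor was that of the choroid plexus markers in the Slc40a1 difference.

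Hamp encodes hepcidin, the hormone that removes ferroportin from the cell surface and that is made mostly in liver (ENSMUSG00000050440.8, chromosome 7 from 30942368 to 30944032, minus strand). It had 0, 5 and 1 counts in CTR, 2, 0 and 0 in CX3 and 0 in each DAT library. Only CTR library B exceeded 3 counts, the least taken as detected, which equals 0.0779 to 0.151 CPM depending on the library and covers counting error only. Its near copy Hamp2 had 3 to 21 counts. Hepcidin mRNA was thus not detectable at this depth in 8 of 9 libraries, and no difference was computed.

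Aco1 encodes iron regulatory protein 1, which is a cytosolic aconitase when it holds an iron-sulphur cluster and binds iron-responsive elements when it does not (ENSMUSG00000028405.9, chromosome 4 from 40143081 to 40198338, plus strand). It had 35.2, 38.1 and 37.2 CPM in CTR, 29.5, 30.7 and 32.0 in CX3, and 45.2, 38.8 and 38.6 in DAT. No ranges overlapped, with CX3 lowest, CTR between and DAT highest. CX3 differed from CTR by −0.26 (SE 0.0653, adjusted p = 0.00775, edgeR) and from DAT by −0.42 (SE 0.0658, adjusted p = 8.11e-05, edgeR). DAT minus CTR was 0.16 (adjusted p = 0.0546, edgeR), and it was called without DAT library B (0.19, adjusted p = 0.0089, edgeR), although DAT library A was the highest of all.

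Ireb2 encodes iron regulatory protein 2, which binds the same elements and is degraded when iron is plentiful (ENSMUSG00000032293.8, chromosome 9 from 54863789 to 54912530, plus strand). Its level was 85.2, 86.3 and 89.1 CPM in CTR, 78.4, 84.9 and 85.5 in CX3, and 87.1, 78.2 and 87.8 in DAT. All 3 ranges overlapped, and no difference was called. CX3 minus CTR was −0.07 (95% interval −0.18 to 0.05), DAT minus CTR −0.04 (−0.16 to 0.08) and CX3 minus DAT −0.03 (−0.14 to 0.09). The sign of the last value and the calls against DAT changed with library size alone, to 0.17 for CX3 minus DAT (adjusted p = 0.0144, edgeR) and −0.19 for DAT minus CTR (adjusted p = 0.00787, edgeR), which are −0.04 and −0.04 relative to the shifts of all genes, 0.20 and −0.15. CX3 minus DAT also turned positive, between 0.0047 and 0.09 and with no call, under both other filters on low counts, in counts of either strand and without CX3 library A, DAT library A or DAT library C, and DAT minus CTR turned to 0.0058 without DAT library B.

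For every 1000 Ireb2 counts there were 413 to 441 Aco1 counts in CTR, 362 to 377 in CX3 and 440 to 518 in DAT. Every CX3 library lay below the CTR range in this ratio, and only the lowest DAT library lay within it.

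Beyond the 10 members, 99 genes of iron pathways were listed, 98 matched and 91 were tested. In CX3, 13 were higher and 22 lower than in CTR (14.3% and 24.2% of those tested). In DAT, 33 were higher and 19 lower than in CTR (36.3% and 20.9%), and between CX3 and DAT 19 were higher and 31 lower in CX3 (20.9% and 34.1%). Set against the shares of all genes given above, the largest gap was the 24.2% lower in CX3 than in CTR, against 16.5%. Those shares, higher and lower, were 14.0% and 16.5% for CX3 against CTR and 32.0% and 27.9% for DAT against CTR. For CX3 against DAT they were 27.6% and 31.3%. Every count of called genes in a list, of pathways or of cell type markers, is to be read beside these shares. Their median log2 differences were 0.0045, 0.04 and −0.03. With library size alone the counts became 19 and 19, 28 and 35, and 46 and 23, so the balance of directions depended on scaling in all 3 comparisons. It depended on the filter too, with 18 and 18 for CX3 against CTR among genes of at least 1 count, and 29 and 28 for DAT against CTR among genes of at least 10 counts in every library.

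**Figure D4:**
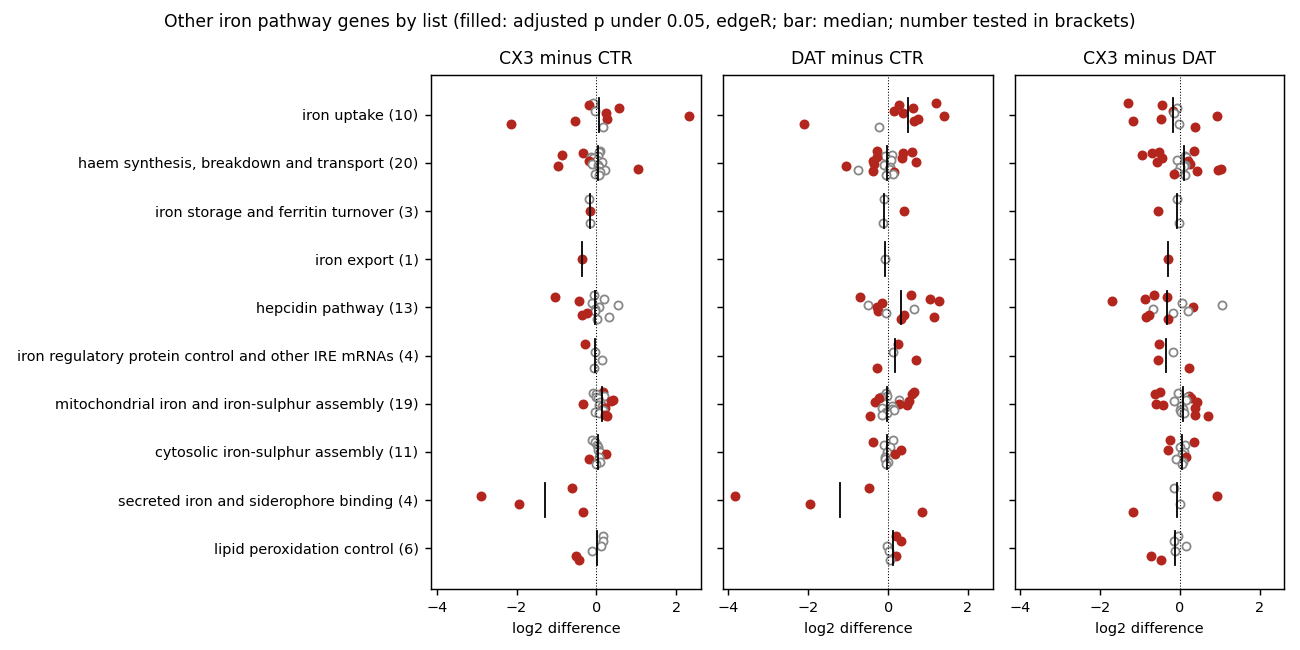
Log2 differences of the 91 other iron pathway genes tested (horizontal axis), 1 point per gene, by list, in 3 panels for the 3 comparisons. Filled points have an adjusted p under 0.05 in edgeR and the bar is the list's median. The widest spread is in secreted iron and siderophore binding, where Lcn2 lies at −2.90 for CX3 and −3.83 for DAT against CTR.

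Among 10 genes of iron uptake, 4 were higher and 3 lower in CX3 than in CTR, 8 higher and 1 lower in DAT than in CTR, and 2 higher and 5 lower in CX3 than in DAT. Their median log2 differences were 0.06, 0.50 and −0.16. The metalloreductase gene Steap1 had 0.525 to 0.659 CPM in CTR, 2.48 to 3.30 in CX3 and 1.18 to 1.81 in DAT, higher by 2.31 (SE 0.209, adjusted p = 1.84e-06, edgeR) and 1.39 (SE 0.239, adjusted p = 0.000174, edgeR) than in CTR, and the DAT call was lost in reverse-strand counts. Its relative Steap4 went the other way, with 4.92 to 6.54 CPM in CTR, 0.924 to 1.45 in CX3 and 0.965 to 1.76 in DAT. Lrp1, a receptor that takes up haem bound to haemopexin among many ligands, had 269 to 280 CPM in CTR, 235 to 273 in CX3 and 522 to 699 in DAT, higher by 1.20 in DAT than in CTR (SE 0.0863, adjusted p = 3.21e-08, edgeR). Steap1 moved in the order of the summed choroid plexus markers given above, a sum that was mostly Ttr in CX3 and DAT. The part of these markers was not tested.

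Of 20 genes of haem synthesis, breakdown and transport, 1 was higher and 4 lower in CX3 than in CTR, 5 higher and 6 lower in DAT than in CTR, and 6 higher and 6 lower in CX3 than in DAT. Of all genes, 14.0% were higher and 16.5% lower in CX3 than in CTR, and 32.0% and 27.9% in DAT than in CTR. These counts therefore do not set the haem list apart. Hmox1, the inducible haem oxygenase that frees iron from haem, had 16.1 to 16.6 CPM in CTR, 7.84 to 9.14 in CX3 and 7.54 to 8.65 in DAT. It was lower by −0.95 in CX3 (SE 0.0760, adjusted p = 5.28e-07, edgeR) and by −1.04 in DAT (SE 0.0807, adjusted p = 6.75e-08, edgeR). Microglia markers, whose sums are given above, moved with it, with 7 of 10 lower and 0 higher in CX3 than in CTR, 8 lower and 1 higher in DAT than in CTR, and none at 0, and their part in the Hmox1 difference was not tested. Alas2, the erythroid enzyme that starts haem synthesis, had 4.80 to 6.02 CPM in CTR, 2.57 to 3.72 in CX3 and 5.59 to 6.10 in DAT. It is itself 1 of the 7 erythroid markers, of which 6 were tested. All 6 were lower in CX3 than in CTR, and in DAT 3 were lower and 0 higher. The part of these markers in the Alas2 difference was not tested.

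In secreted iron and siderophore binding, all 4 genes were lower in CX3 than in CTR, and 3 were lower and 1 higher in DAT. Lcn2, which encodes lipocalin 2, a binder of iron-carrying siderophores, had 19.6 to 21.2 CPM in CTR, 2.60 to 2.86 in CX3 and 1.29 to 1.58 in DAT. These are differences of −2.90 (SE 0.0857, adjusted p = 9.01e-12, edgeR) and −3.83 (SE 0.103, adjusted p = 1.59e-12, edgeR). Its proposed receptor Slc22a17 had 425 to 432 CPM in CTR, 330 to 349 in CX3 and 738 to 780 in DAT, so that CX3 and DAT lay on opposite sides of CTR. Ltf, the neutrophil iron binder lactoferrin, was low, at 0.328 to 0.604 CPM in CTR and at most 0.192 in the other groups. Monocyte or neutrophil markers moved with Lcn2 and Ltf (of 8 markers, 5 were tested, with 4 lower in CX3 and 5 lower in DAT than in CTR, and Ly6g at 0 in DAT). Most of their sum in CTR came from Ly6c2, at a mean of 39.2 CPM, while S100a8 had 0.793 and Ngp 0.564. Astrocyte markers were lower as well, with 6 of 8 lower and 0 higher in CX3 than in CTR, and 4 lower and 1 higher in DAT. The part of either list in the Lcn2 and Ltf differences was not tested.

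The hepcidin pathway held 13 tested genes, with 0 higher and 4 lower in CX3 than in CTR, 6 higher and 4 lower in DAT than in CTR, and 1 higher and 7 lower in CX3 than in DAT. Bmp6, the ligand that induces hepcidin in liver, had 19.8 to 20.1 CPM in CTR, 14.4 to 15.03 in CX3 and 46.7 to 50.6 in DAT. CX3 lay below and DAT far above CTR, by −0.44 (SE 0.0562, adjusted p = 5.02e-05, edgeR) and 1.27 (SE 0.0530, adjusted p = 1.34e-10, edgeR). Bmp2, another such ligand, had 4.33 to 4.70, 5.04 to 5.31 and 8.99 to 9.92 CPM. Smad6, an inhibitor of signalling by these ligands, had 2.56 to 3.57 CPM in CTR, 3.78 to 4.05 in CX3 and 6.94 to 7.14 in DAT, higher in DAT than in CTR by 1.15 (SE 0.120, adjusted p = 1.46e-06, edgeR). Atoh8, a transcription factor of this pathway, had 5.25 to 5.75 CPM in CTR, 2.47 to 2.96 in CX3 and 3.02 to 3.56 in DAT. Hamp itself was at or near 0 beside these levels.

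Among 4 genes that control the iron regulatory proteins or carry other iron-responsive elements, 0 were higher and 1 lower in CX3 than in CTR, 2 higher and 1 lower in DAT than in CTR, and 1 higher and 2 lower in CX3 than in DAT. Epas1, a hypoxia-inducible factor subunit, was higher in DAT, with 185 to 235 CPM against 130 to 140 in CTR (0.69, SE 0.0783, adjusted p = 3.49e-06, edgeR). Fbxl5, the iron-sensing ligase subunit that marks iron regulatory protein 2 for degradation, was lower in DAT, at 103 to 110 against 127 to 132 CPM. Of 3 tested genes of ferritin turnover, Pcbp1, a chaperone that delivers iron to ferritin, had 175 to 199.9 CPM in DAT against 139 to 145 in CTR (0.39, SE 0.0531, adjusted p = 1.96e-05, edgeR), whereas both ferritin chains were lower there. Heph, the copper oxidase hephaestin and the 1 tested gene of the export list, had 22.1 to 25.5 CPM in CTR, 18.2 to 19.4 in CX3 and 20.6 to 24.7 in DAT, and was lower in CX3 than in CTR by −0.37 (SE 0.0738, adjusted p = 0.00166, edgeR), as Cp was.

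Mitochondrial iron and iron-sulphur assembly held 19 tested genes, with 7 higher and 1 lower in CX3 than in CTR, 5 higher and 3 lower in DAT than in CTR, and 6 higher and 4 lower in CX3 than in DAT. Glrx5, which hands on nascent iron-sulphur clusters, had 55.0 to 56.6 CPM in CTR, 68.5 to 75.0 in CX3 and 72.1 to 94.5 in DAT, above CTR in both. Slc25a37, the mitochondrial iron importer mitoferrin 1, had 30.7 to 33.6, 37.8 to 38.7 and 21.1 to 24.5 CPM, higher in CX3 by 0.26 (SE 0.0583, adjusted p = 0.00448, edgeR) and lower in DAT by −0.46 (SE 0.0622, adjusted p = 2.01e-05, edgeR). The mitochondrial transporter genes Abcb10 and Abcb8 were higher in DAT, at 42.7 to 45.7 against 26.2 to 30.2 CPM in CTR and at 50.7 to 55.8 against 34.3 to 36.5. Hspa9, the mitochondrial chaperone of cluster transfer, was the gene lower in CX3, at 216 to 221 against 272 to 281 CPM. Of 11 genes of cytosolic iron-sulphur assembly, 1 was higher and 1 lower in CX3 than in CTR, 2 higher and 1 lower in DAT than in CTR, and 2 higher and 2 lower in CX3 than in DAT, among them Ciao2a, an assembly factor with 26.1 to 27.2, 25.3 to 26.8 and 19.2 to 23.1 CPM. Of 6 genes of lipid peroxidation control, 0 were higher and 2 lower in CX3 than in CTR, Slc3a2 (92.6 to 98.4 against 135 to 137 CPM) and Slc7a11 (89.7 to 104 against 131 to 140 CPM), which together form the cystine importer, and 3 were higher and 0 lower in DAT.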

How the data were processed

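The authors deposited raw read counts per gene for each of 9 libraries of mouse nigral RNA, with no normalization, once over both strands and once per strand. The submitters' processing notes name Trimmomatic, STAR, featureCounts, DESeq2 and mm10 without versions, and the tables have the layout of STAR's gene counts. All 55450 identifiers matched GENCODE M21. Samples were grouped by their labels. The protein encoded by the test vector and 1 gene of the other iron pathway lists are not reported here.

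Counts of both strands were filtered (filterByExpr), scaled by TMM and tested across all 3 groups with edgeR 4.0.16 (quasi-likelihood, Benjamini-Hochberg adjustment) in R 4.3.3. The fit was also run on simulated counts, in which every gene had the same fixed spread and few genes were changed, all raised in CX3. There, for CX3 minus CTR, it recovered 32 of 50 genes changed 1.25-fold, 49 of 50 changed 1.5-fold and 50 of 50 changed 2-fold. It called 13 of 20450 unchanged genes. In the real libraries far more genes were called and the spread differed between groups, so these rates need not hold for them. CPM are counts over the normalized library size and RPKM divide them by exon bases not shared with other genes. Multimapping and ambiguous reads were left out of the deposited counts. Alternatives were DESeq2 1.42.0, other scaling, filters and strands, a replicate block, glmTreat and leaving out each library. All 10 members are named with every value, and, for each other list and each comparison, at most the 3 called genes with the largest change in that comparison. The members and lists were chosen with earlier results of these data known.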

Additional observations from a re-analysis of the deposited data

How the results depend on the processing

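Of 432 alternative values of the members' log2 differences, 382 kept their direction and side of the threshold, 20 lost and 19 gained a call, and 11 changed sign, all of Ireb2 and Slc11a2 differences not called in the fit reported. Ireb2 CX3 minus DAT turned to 0.1666 with library size alone (adjusted p = 0.0144, edgeR), 0.0047 with genes of at least 1 count, 0.0460 with at least 10 counts in every library, 0.0886 and 0.0243 in reverse-strand and forward-strand counts, and positive without CX3 library A, DAT library A or DAT library C (−0.0661 to 0.0339 over libraries left out). Ireb2 DAT minus CTR turned to 0.0058 without DAT library B (−0.0853 to 0.0058), and Slc11a2 CX3 minus DAT to 0.0868 with library size alone and 0.0075 in forward-strand counts. The members called stayed at 4 to 5 (CX3 minus CTR), 5 to 7 (DAT minus CTR) and 5 to 7 (CX3 minus DAT) when 1 library was left out, the other iron pathway genes called at 26 to 32, 47 to 64 and 47 to 67, and all genes called at 4638 to 5685, 11259 to 13389 and 11265 to 13254. Against a fold of 1.5 (glmTreat), 0, 1 and 0 members were called in the comparisons CX3 minus CTR, DAT minus CTR and CX3 minus DAT, with 5, 11 and 11 other iron pathway genes and 529, 3773 and 3780 of all genes, because that test asks for a larger change. With library size alone, 8 members were called between CX3 and DAT and the median of all genes shifted by 0.20. It split all called genes into 4890 higher and 8045 lower in DAT than in CTR, against 6686 and 5834, into 3958 and 2766 in CX3 than in CTR, against 2923 and 3444, and into 8916 and 4444 in CX3 than in DAT, against 5767 and 6544. Replicate letters did not pair the libraries, since same-letter deviations correlated at −0.160 to 0.0398. With a replicate block 4, 7 and 5 members were called, Slc40a1 in DAT being added (0.20, adjusted p = 0.0281, edgeR), and 5805, 12144 and 11955 genes in all. Depth limits Hamp, Ltf and other genes of few counts.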
